A study of Homo sapiens with 6 samples.

Results

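The genes of the spliceosome and of the heterogeneous nuclear ribonucleoproteins (hnRNPs) were examined in HL60 cells treated with tretinoin or vehicle. They were taken by symbol, as genes whose names begin with HNRNP, SNRP, SF3A, SF3B, SRSF, PRPF or U2AF, or with LSM and a digit, and that have a probe set annotated to that gene alone. This gave 68 genes of the 11963 with such a probe set, after 1 pseudogene (HNRNPA3P1) was set aside. Of these 68 genes, 39 had several probe sets, and each gene was represented by its brightest. HL60 is an established human promyelocytic leukemia line, and tretinoin (all-trans retinoic acid) is a ligand of the retinoic acid receptors that makes these cells mature toward granulocytes. Treated cells received 1 μM tretinoin for 5 days in dimethyl sulfoxide (DMSO) at 0.1%, and the vehicle cells received 0.1% DMSO alone for the same 5 days. Total RNA of bulk cultures was measured on Affymetrix HG-U133A arrays, 3 for tretinoin and 3 for DMSO. The 3 arrays of a condition were hybridized in parallel with pooled labeled product, so every p-value here measures the spread between hybridizations and not between cultures.

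Introns are removed from pre-mRNA by the spliceosome, which assembles anew on each intron from small nuclear ribonucleoproteins (snRNPs) and many further proteins. Most spliceosomal snRNAs carry a ring of Sm proteins, U6 carries a ring of LSM proteins, SF3A and SF3B belong to the U2 snRNP that marks the branch point, and U2AF reads the 3' splice site. SR proteins mostly promote the use of exons, whereas hnRNP proteins coat pre-mRNA and often oppose it, so the balance between them helps to set alternative splicing.

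The arrays had mean deposited signals of 91.3 to 132.7 for tretinoin and 121.5 to 151.9 for DMSO, and were brought to the mean of DMSO replicate 1 by factors of 0.820 to 1.36. Log2 signals correlated at 0.968 to 0.981 among tretinoin arrays, at 0.974 to 0.976 among DMSO arrays and at 0.899 to 0.905 between conditions, across probe sets that are not independent of each other. The summed signal of 6 genes listed for HL60 promyelocytes, MYC among them, was 344 to 371 on tretinoin arrays and 5894 to 6906 on DMSO arrays. Most of the DMSO sum came from MPO (2914 to 3367) and MYC (2485 to 3092). MPO, MYC and AZU1 were above 20 on all 6 arrays, and ELANE was below 20 on every tretinoin array. That of 4 markers of granulocytic maturation was 2671 to 3243 on tretinoin arrays and 426 to 471 on DMSO arrays. Markers of T cells, B cells, erythroid cells, fibroblasts and epithelial cells had sums under 141 on every array, with overlapping ranges. Of these, ALAS2, COL1A2, KRT8 and EPCAM were below 20 on every array. CD3E, HBB, COL1A1 and KRT18 were above 20 on all 6 arrays, between 29.27 and 97.51, and overlapped between conditions. The 3'/5' signal ratio of ACTB, used to judge how intact RNA and label were, was 1.14 to 1.17 on tretinoin arrays and 1.38 to 1.42 on DMSO arrays. That of GAPDH was 1.15 to 1.19 on tretinoin arrays and 1.06 to 1.17 on DMSO arrays, and the part of either in the results was not tested.

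Many of the splicing genes were lower in tretinoin-treated cells, and no member tested was called higher. Of the 67 members tested by limma, 25 (37.3%) were called lower. A call required that adjusted p was under 0.05 and that the fit gave 1.5-fold or more. Across all 8161 genes tested the same call was made for 14.3%. No member was called higher by limma, against 13.5% of all genes. The remaining 42 members were not called, and LSM14B, at or below 20 on every array, was not tested. Signals on all 3 tretinoin arrays lay below all 3 DMSO arrays for 43 members (24.7% of all genes) and above them for 3 members (21.5% of all genes), which were SF3B1, SRSF5 and HNRNPK. The fitted log2 fold change was negative for 59 members and positive for 8, against 4346 and 3815 of all 8161 genes. Its median was -0.46 over the members and -0.04 over all genes tested. With the arrays left unscaled these medians were -0.66 and -0.22, and 6 of the 8 positive members (HNRNPH3, HNRNPK, HNRNPUL2, LSM1, SRSF4 and SRSF8) had negative log2 fold changes, so that only SF3B1 and SRSF5 stayed positive. In bulk RNA, fewer cells of a type and less RNA per cell cannot be told apart. Genes of the replicative MCM helicase, which mark dividing cells, moved with this result: all 6 were called lower, with a median log2 fold change of -2.24, and their part in it was not tested.

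**Figure D1:**
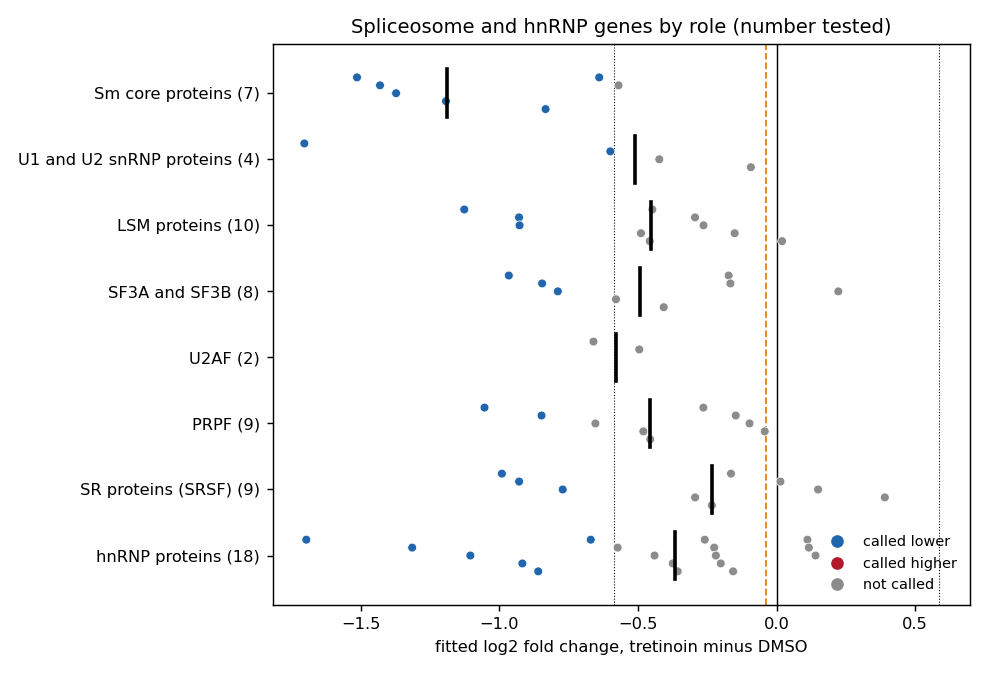
Fitted log2 fold change, tretinoin minus DMSO, of each tested member by role, with the number tested in brackets. Black bars are group medians, the dashed line is the median of all genes tested at -0.04, the dotted lines mark 1.5-fold, and the Sm core has the lowest group median, -1.19.

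The Sm core proteins, which form the ring at the heart of most spliceosomal snRNPs, had the largest share of calls. Of 7 tested, 6 were lower and 0 were higher by limma (14.3% lower and 13.5% higher over all genes). All 7 had every tretinoin array below every DMSO array (24.7% of all genes). SNRPF had scaled signals of 209.7, 160.7 and 219.0 on the tretinoin arrays, against 505.7, 456.1 and 744.8 on the DMSO arrays. It was 2.90-fold lower (log2 fold change -1.51 ± 0.22, SE; limma, adjusted p = 0.00231). Its highest tretinoin array was below its lowest DMSO array by more than the spread among tretinoin arrays, while DMSO replicate 3 stood above the other vehicle arrays. SNRPD1, which pairs with SNRPD2 in the ring, read 221.2, 195.3 and 200.9 in tretinoin and 615.3, 532.7 and 519.1 in DMSO, 2.70-fold lower (log2 fold change -1.43 ± 0.13, SE; limma, adjusted p = 0.000302). SNRPB, which encodes SmB and SmB', read 402.9, 438.3 and 419.2 in tretinoin against 933.5, 1154 and 1195 in DMSO, 2.60-fold lower (limma, adjusted p = 0.000485). Neither gene overlapped between conditions, and a further probe set of each was also called lower, with log2 fold changes of -1.14 for SNRPD1 and -1.04 for SNRPB. SNRPD3, the partner of SmB in ring assembly, read 254.9, 242.8 and 305.8 in tretinoin and 561.2, 642.4 and 627.4 in DMSO, 2.28-fold lower (limma, adjusted p = 0.000897).

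Smaller fold changes were measured for the other genes of the ring. SNRPE read 559.1, 554.0 and 626.7 in tretinoin and 1044, 996.5 and 1057 in DMSO, 1.78-fold lower (limma, adjusted p = 0.00216). SNRPD2 read 814.4, 948.5 and 799.0 in tretinoin and 1241, 1291 and 1458 in DMSO, 1.56-fold lower (limma, adjusted p = 0.0111). That call was lost without DMSO replicate 3, where the log2 fold change was -0.57, under the 1.5-fold minimum of 0.585. SNRPG, at 469.7, 395.9 and 547.8 in tretinoin and 728.9, 655.1 and 698.6 in DMSO, did not overlap either (limma, adjusted p = 0.0288), but its log2 fold change of -0.57 was also under that minimum.

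**Figure D2:**
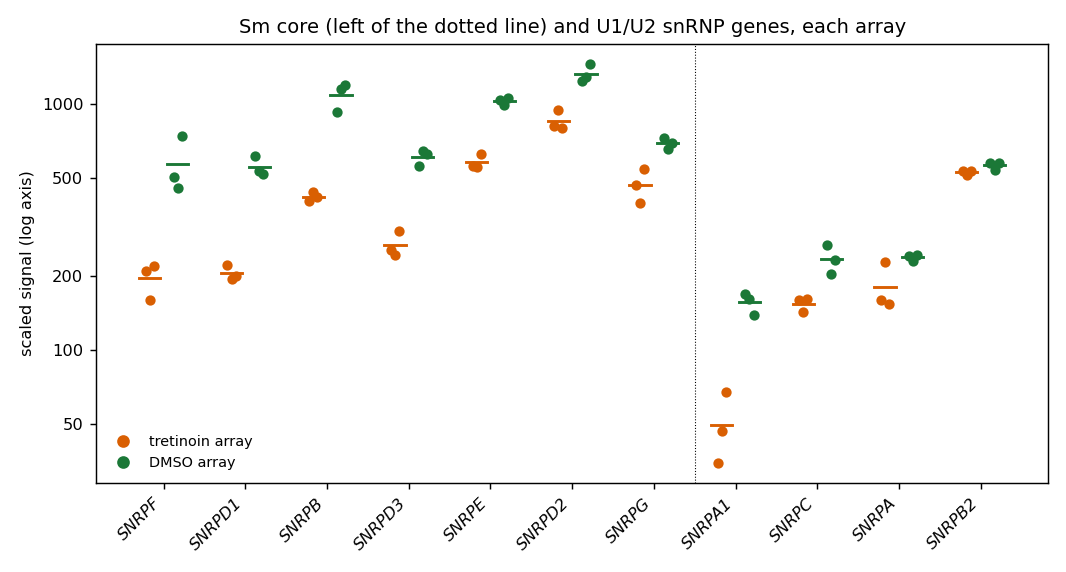
Scaled signal (log axis) of the Sm core genes and of the U1 and U2 snRNP genes on each array, with tretinoin to the left of DMSO for each gene and bars at the mean of 3 arrays. All 11 genes have their tretinoin points below their DMSO points, from the wide gap of SNRPA1 to the narrow one of SNRPB2.

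Because the Sm genes moved together, the DNA just before their transcription starts was read from the RefSeq promoter table (GRCh38.p14), which held 60 of the 68 members in 82 windows of 250 bases that end at a start. The first 4 sequences below are windows of Sm core genes called lower, and the last, SF3B1, is of a member that was not called. Each is on the gene's own strand. Capitals mark CCGGAA or its reverse complement TTCCGG, a form of the ETS factor site, whose core is the shorter GGAA. They also mark CACGTG, the E-box bound by MYC and related factors. GGAA after other bases was neither marked nor counted. SNRPB lies at chr20:2470790-2471039 (minus strand), SNRPD2 at chr19:45692317-45692566 (minus), SNRPD3 at chr22:24555749-24555998 (plus), SNRPF at chr12:95858702-95858951 (plus) and SF3B1 at chr2:197435029-197435278 (minus).
SNRPB: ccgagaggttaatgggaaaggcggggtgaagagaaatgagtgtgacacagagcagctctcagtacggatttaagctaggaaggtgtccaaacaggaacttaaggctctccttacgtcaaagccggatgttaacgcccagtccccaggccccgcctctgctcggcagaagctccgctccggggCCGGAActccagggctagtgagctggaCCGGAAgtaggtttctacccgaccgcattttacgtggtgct
SNRPD2: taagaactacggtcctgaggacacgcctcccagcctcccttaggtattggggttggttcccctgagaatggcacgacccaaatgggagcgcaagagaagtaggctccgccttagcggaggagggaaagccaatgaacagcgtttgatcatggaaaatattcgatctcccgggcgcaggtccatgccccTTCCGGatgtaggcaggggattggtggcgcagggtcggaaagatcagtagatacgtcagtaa
SNRPD3: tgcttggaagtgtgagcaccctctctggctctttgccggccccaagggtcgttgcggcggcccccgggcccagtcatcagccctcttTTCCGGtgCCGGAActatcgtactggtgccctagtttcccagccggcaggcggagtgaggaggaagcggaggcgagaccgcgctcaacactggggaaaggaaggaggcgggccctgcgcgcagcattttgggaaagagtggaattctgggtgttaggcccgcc
SNRPF: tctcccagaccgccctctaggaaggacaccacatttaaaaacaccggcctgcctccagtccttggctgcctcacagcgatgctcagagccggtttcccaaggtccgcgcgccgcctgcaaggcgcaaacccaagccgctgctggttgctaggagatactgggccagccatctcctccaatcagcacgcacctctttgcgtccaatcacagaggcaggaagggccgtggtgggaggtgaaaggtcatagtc
SF3B1: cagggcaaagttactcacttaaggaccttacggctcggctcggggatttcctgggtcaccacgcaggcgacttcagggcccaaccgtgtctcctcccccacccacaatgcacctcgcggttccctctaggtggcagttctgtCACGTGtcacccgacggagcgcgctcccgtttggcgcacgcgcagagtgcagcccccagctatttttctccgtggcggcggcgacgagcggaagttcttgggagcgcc

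The windows of SNRPB and SNRPD3 held 2 copies of CCGGAA each on either strand, that of SNRPD2 held 1, and that of SNRPF held none of the capitalized motifs. The E-box stood in the SF3B1 window and in none of the Sm windows printed. It also stood in windows of HNRNPA3 and HNRNPM, which were called lower. Members not called also held CCGGAA, such as SNRPB2 (3 matches) and the Sm gene SNRPG (1 in each window). SNRPE, a further Sm core gene called lower, was not printed, and its window held 2 overlapping matches of CCGGAA. Further starts of SNRPD2 and SNRPD3 had windows without either motif. Each window precedes 1 listed start and can hold bases transcribed from another start upstream, as windows of SNRPG do. Whether the SNRPE window does so was not tested. With both strands searched, CCGGAA was found in 35.4% of the 82 member windows, against 14.5% of all 35116 RefSeq windows of this length and 18.7% of those of genes on the array. It was found in 42.9% of the 28 windows of members called lower and in 32.1% of the 53 windows of the other tested members. CACGTG was found in 7.14% of the windows of members called lower and in 11.3% of those of the other tested members. Its share was 6.34% of all windows and 7.74% of those of genes on the array. CCAAT, a common promoter element, was found in 39% of member windows, 32% of all windows and 33.3% of those of genes on the array. The 2 strand forms of CCGGAA can overlap each other but not the E-box, and the CCAAT element can share end bases with CCGGAA. Windows of 1 gene can share bases, and a match describes these letters only.

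Among the 4 genes for proteins particular to the U1 or U2 snRNP, 2 were lower and 0 were higher by limma. Over all genes 14.3% were lower and 13.5% higher. SNRPA1, the U2 A' protein, had the largest fitted fall of all members, with HNRNPA3 next to it. It read 34.78, 46.78 and 67.58 on the tretinoin arrays against 169.2, 161.2 and 139.3 on the DMSO arrays, with no overlap, and was 3.15-fold lower (log2 fold change -1.70 ± 0.25, SE; limma, adjusted p = 0.0021). Its further probe sets were called lower too, at log2 fold changes of -1.17 and -0.66. SNRPC, which helps U1 to bind the 5' splice site, read 159.5, 142.8 and 161.7 in tretinoin and 268.1, 204.9 and 233.5 in DMSO (1.52-fold lower; limma, adjusted p = 0.019), the smallest change that was called. The SNRPC call was lost without tretinoin replicate 1 or 2 or DMSO replicate 1 or 3, where adjusted p lay between 0.0474 and 0.0606 and the log2 fold change between -0.62 and -0.50. SNRPB2, the partner of SNRPA1 on the U2 snRNA, was nearly level at 533.2, 517.4 and 537.3 in tretinoin and 576.8, 541.2 and 576.0 in DMSO (log2 fold change -0.09 ± 0.11, SE; limma, adjusted p = 0.598), and SNRPA, a U1 protein, was not called either (-0.42).

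The proteins LSM1 to LSM8 form related rings, one around the U6 snRNA and one, with LSM1, that acts in mRNA decay. The LSM genes tested also include LSM12 and LSM14A, which are not of these rings. Of 10 LSM genes tested, 3 were lower, 0 were higher by limma and 7 were not called (14.3% lower and 13.5% higher over all genes). LSM7 read 88.51, 134.1 and 120.4 in tretinoin and 246.0, 206.4 and 293.3 in DMSO, 2.17-fold lower with no overlap (limma, adjusted p = 0.006). LSM6 was 1.91-fold lower, at 136.6 ± 4.29 in tretinoin and 261.6 ± 34.4 in DMSO, and LSM5 was 1.91-fold lower, at 199.3 ± 25.9 in tretinoin and 381.2 ± 67.9 in DMSO (SD, n = 3 arrays each; limma, adjusted p = 0.00241 and 0.00731). All 3 belong to both rings. LSM1, found only in the decay ring, overlapped between conditions at 193.9, 188.5 and 186.2 in tretinoin and 179.3, 186.5 and 195.3 in DMSO (log2 fold change 0.02 ± 0.12, SE; limma, adjusted p = 0.923). LSM8, found only in the U6 ring, had a log2 fold change of -0.46, under the fold minimum, and did not pass on adjusted p either (0.0509 by limma).

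SF3A and SF3B subunits hold the U2 snRNP on the branch point. Of 8 tested, 3 were lower (SF3A3, SF3B2 and SF3A2), 0 were higher by limma and 5 were not called. Over all genes 14.3% were lower and 13.5% higher. SF3A3 read 79.29, 109.8 and 70.68 in tretinoin and 164.2, 168.9 and 165.5 in DMSO, 1.92-fold lower with tightly grouped vehicle arrays (limma, adjusted p = 0.00665). SF3B2 was 1.78-fold lower and SF3A2 1.72-fold lower (limma, adjusted p = 0.0099 and 0.00603), and SF3A1 passed on adjusted p (0.0166 by limma) with a log2 fold change of -0.58, under the minimum. The further probe sets of SF3A1 overlapped between conditions, at log2 fold changes of -0.02 and -0.12 (limma, adjusted p = 0.972 and 0.688). SF3B1, the subunit that contacts the branch point and is recurrently mutated in myelodysplastic syndromes, had a log2 fold change of the opposite sign. It read 694.1, 691.7 and 681.0 in tretinoin and 625.6, 562.1 and 585.3 in DMSO, all tretinoin arrays above all DMSO arrays, but was not called (log2 fold change 0.22 ± 0.12, SE; limma, adjusted p = 0.2). All 4 of its probe sets had positive log2 fold changes, between 0.16 and 0.31, and none was called. Without scaling of the arrays the brightest had a log2 fold change of 0.02.

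U2AF1, the subunit of U2AF that reads the AG of the 3' splice site, had the largest fitted change among members that were not called. It read 424.9, 309.9 and 414.2 in tretinoin and 448.7, 668.1 and 718.9 in DMSO, with DMSO replicate 1 close to the tretinoin arrays (log2 fold change -0.66 ± 0.22, SE; limma, adjusted p = 0.0624). Without DMSO replicate 1 it was called, at a log2 fold change of -0.87 (limma, adjusted p = 0.0218). U2AF2, which binds the polypyrimidine tract, had a log2 fold change of -0.50 (limma, adjusted p = 0.103). Neither overlapped between conditions.

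The PRPF genes, named after yeast pre-mRNA processing mutants, encode proteins of different parts of the spliceosome. Of 9 tested, 2 were lower, 0 were higher by limma and 7 were not called (14.3% lower and 13.5% higher over all genes). All 9 had negative log2 fold changes, as did 4346 of all 8161 genes tested. PRPF19, a ubiquitin ligase of the complex that activates the spliceosome, read 146.5, 156.8 and 158.4 in tretinoin and 286.8, 325.9 and 348.0 in DMSO, 2.08-fold lower with no overlap (limma, adjusted p = 0.00104). PRPF31, a protein of the tri-snRNP, read 81.09, 59.60 and 83.92 in tretinoin and 108.8, 116.4 and 186.9 in DMSO, 1.83-fold lower (limma, adjusted p = 0.037), and this call was lost in 9 of the 20 alternative settings that kept the fold minimum or lowered it, among them those without any single array except DMSO replicate 1. PRPF8, the protein at the catalytic center, had a log2 fold change of -0.46 (limma, adjusted p = 0.024), under the fold minimum. PRPF3, another tri-snRNP protein, lay near the floor of 20, at 12.93, 22.78 and 27.88 in tretinoin and 42.40, 22.36 and 52.17 in DMSO, and was not called (limma, adjusted p = 0.169). It was called in only 1 of 21 alternative settings, that without DMSO replicate 2, at a log2 fold change of -1.01 (limma, adjusted p = 0.0158). PRPF38B overlapped, with a log2 fold change of -0.04.

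Serine and arginine rich splicing factors (SR proteins) had fitted changes of both signs, but those called were all lower. Of 9 tested, 3 were lower, 0 were higher by limma and 6 were not called (14.3% lower and 13.5% higher over all genes). Their log2 fold changes lay between -0.99 and 0.39. SRSF7 read 264.2, 209.6 and 248.1 in tretinoin and 469.6, 482.8 and 476.1 in DMSO, 1.98-fold lower (limma, adjusted p = 0.00163). SRSF6 read 218.9, 194.9 and 213.6 in tretinoin and 400.1, 397.7 and 395.5 in DMSO, 1.90-fold lower (limma, adjusted p = 0.00119). SRSF1, a founding SR protein that acts on constitutive and alternative splicing, averaged 259.7 ± 13.2 in tretinoin and 443.3 ± 16.4 in DMSO (SD, n = 3 arrays each), 1.71-fold lower (limma, adjusted p = 0.0027). These 3 genes did not overlap between conditions on their brightest probe sets. SRSF5, in contrast, read 273.7, 260.1 and 288.6 in tretinoin and 199.9, 230.5 and 197.9 in DMSO, with all tretinoin arrays above (log2 fold change 0.39 ± 0.13, SE), and met neither the p threshold nor the fold minimum (limma, adjusted p = 0.0558). SRSF3 overlapped on its brightest probe set, at 431.1, 477.1 and 548.6 in tretinoin and 471.2, 458.2 and 735.8 in DMSO, whereas another of its probe sets was called lower (log2 fold change -0.73; limma, adjusted p = 0.0267). SRSF8 had the smallest change of all members (log2 fold change 0.01), and the only member probe set called higher was its other one, at 98.54, 75.56 and 114.0 in tretinoin and 70.70, 53.94 and 59.06 in DMSO (1.57-fold; limma, adjusted p = 0.0424).

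**Figure D3:**
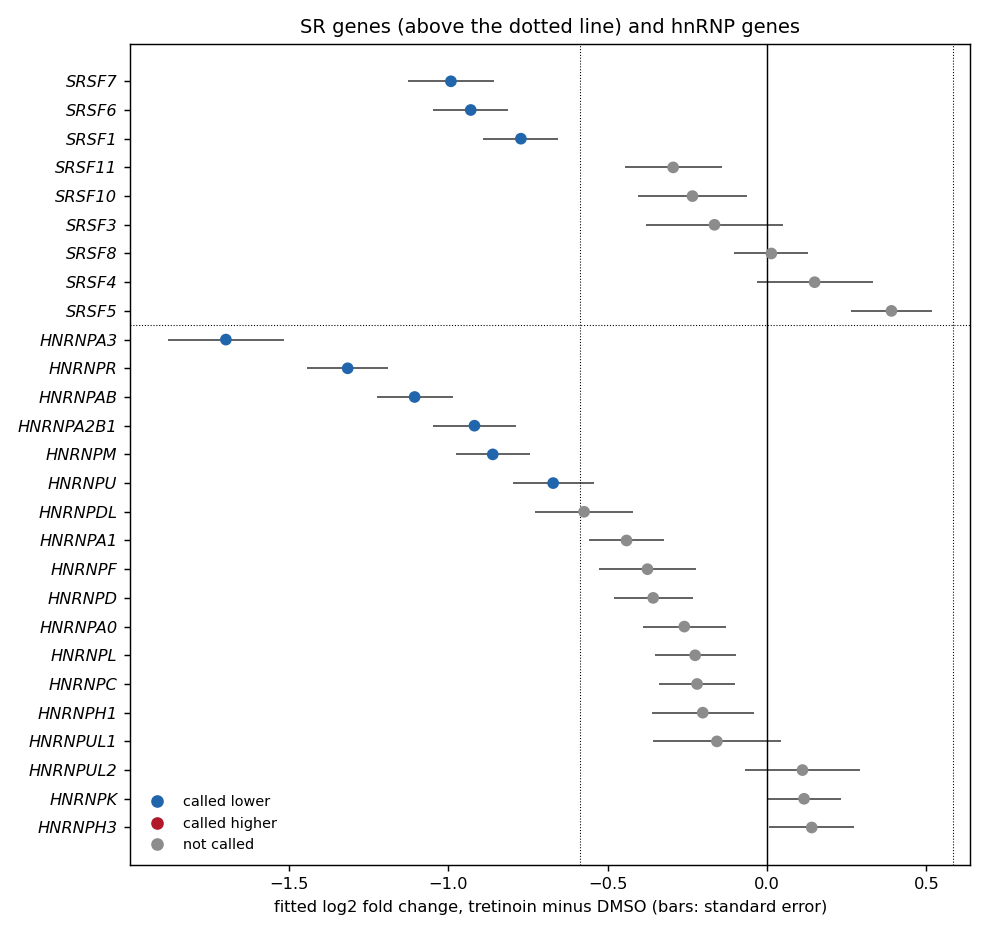
Fitted log2 fold change, tretinoin minus DMSO, of the 9 SR genes (above the dotted horizontal line) and the 18 hnRNP genes, with standard errors as bars and 1.5-fold as dotted vertical lines. Values run from -1.70 for HNRNPA3 to 0.39 for SRSF5, and no point is called higher.

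The hnRNP genes ranged in log2 fold change from -1.70 to 0.14. Of 18 tested, 6 were lower, 0 were higher by limma and 12 were not called (14.3% lower and 13.5% higher over all genes). HNRNPA3, an RNA-binding protein of the A/B class, read 70.47, 58.10 and 89.27 in tretinoin and 224.6, 221.3 and 250.8 in DMSO, 3.20-fold lower (log2 fold change -1.70 ± 0.18, SE; limma, adjusted p = 0.000549). HNRNPR read 249.1, 207.8 and 233.6 in tretinoin and 577.8, 553.1 and 583.2 in DMSO, 2.48-fold lower (log2 fold change -1.31 ± 0.13, SE; limma, adjusted p = 0.000363), and its other probe set was also called lower (-1.45). HNRNPAB, another protein of the A/B class, read 404.7, 445.7 and 452.7 in tretinoin and 954.9, 936.4 and 908.6 in DMSO, 2.15-fold lower (limma, adjusted p = 0.00057). In these 3 genes the gap between the conditions exceeded the range of signals within either. The other 3 called lower were HNRNPA2B1 (1.88-fold), HNRNPM (1.81-fold) and the scaffold protein HNRNPU (1.59-fold), with adjusted p from 0.00157 to 0.00678 by limma. The further probe sets of HNRNPU were not called, at log2 fold changes of -0.54 and -0.55 (limma, adjusted p = 0.0129 and 0.114).

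Other widely studied hnRNPs were not called. HNRNPH1, which binds G-rich tracts, overlapped at 1933, 1527 and 2123 in tretinoin and 2058, 2019 and 2292 in DMSO (log2 fold change -0.20 ± 0.16, SE; limma, adjusted p = 0.399). HNRNPK, a poly(C)-binding protein, was slightly above vehicle on all 3 tretinoin arrays (log2 fold change 0.12 ± 0.12, SE; limma, adjusted p = 0.513), and HNRNPC was at -0.22 (limma, adjusted p = 0.218). HNRNPA1 had a log2 fold change of -0.44 (limma, adjusted p = 0.026) and HNRNPDL of -0.57 (limma, adjusted p = 0.0269), both under the fold minimum on the brightest probe set. Another probe set of HNRNPA1 was called lower (-0.61; limma, adjusted p = 0.0198), as were 3 others of HNRNPDL, at -0.77, -0.80 and -1.15.

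Probe sets of a gene can read different transcripts of it, which matters for splicing factors because many of them regulate their own splicing. Among 141 member probe sets, 132 were tested, and 47 of these were called lower (13.8% of all 13374 tested) and 1 higher (13.6% of all tested), so that 32 genes had at least 1 lower probe set. In 38 genes with several tested probe sets, all were lower in 8, some were lower and the others not called in 12, none was called in 17, and 1 gene, SRSF8, had a higher one beside one not called. Shares over all genes were not computed for these counts per gene. A gene with more probe sets has more occasions for a call, so these counts cannot be set against the shares of probe sets. No member had probe sets called in opposite directions, which 7 of the 2391 genes with several tested probe sets had. To compare probe sets, the difference between a gene's other probe set and its brightest was tested within arrays by limma. Of 65 member pairs in 38 genes, 3 changed unequally, or 4.62%, against 3.99% of all 3508 pairs, a share close to the background.

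The pairs called were of SRSF6, SRSF7 and HNRNPA3. The second probe set of SRSF6 read 80.89, 106.1 and 114.5 in tretinoin and 77.80, 76.09 and 82.93 in DMSO, with a log2 fold change of 0.33, against -0.93 on the brightest, a difference of 1.26 ± 0.21 (SE; limma, adjusted p = 0.0185). For SRSF7, the probe set of the called pair read 273.1, 249.6 and 244.5 in tretinoin and 255.2, 272.3 and 261.1 in DMSO, which overlap, with a difference from the brightest of 0.95 ± 0.18 (SE; limma, adjusted p = 0.0273). Its other probe sets, at -0.58 each, were not called as different from the brightest (limma, adjusted p = 0.291 and 0.629). HNRNPA3 was called lower on all 3 of its probe sets. The called pair set the brightest against one at 116.8, 103.4 and 116.4 in tretinoin and 172.6, 187.1 and 211.4 in DMSO (difference 0.94 ± 0.20, SE; limma, adjusted p = 0.0394), and the third probe set differed by 0.88 without a call (limma, adjusted p = 0.102). These differences kept their sign without any 1 array, but the calls did not hold: 1 pair (SRSF6) was called without tretinoin replicate 1, and 0 were called by limma without tretinoin replicate 2 or 3 or any DMSO array, with adjusted p from 0.0577 to 0.12. The brightest SRSF7 probe set carries the suffix that Affymetrix gives to probe sets whose probes also match other sequences. With the probe sets of each gene averaged, SRSF1, SRSF6 and SRSF7 were no longer called.

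**Figure D4:**
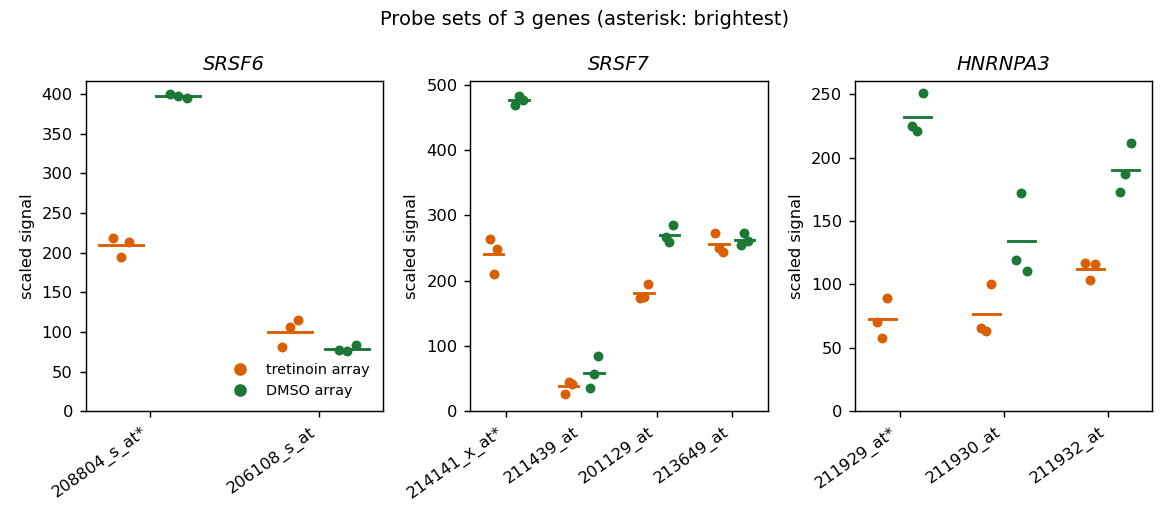
Scaled signal (linear axis from 0) of every tested single-gene probe set of SRSF6, SRSF7 and HNRNPA3 on each array, with tretinoin left of DMSO, bars at means of 3 arrays, and an asterisk at the brightest probe set. The brightest falls in each gene, while the other probe set of SRSF6 averages 100.5 in tretinoin and 78.9 in DMSO and 2 of the 4 of SRSF7 overlap.

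Further genes of splicing, taken from a list of 113 that the name rule does not reach, were called lower more often than higher. Of 85 tested, 24 were lower (28.2%), 6 were higher (7.06%) and 55 were not called by limma. Over all genes 14.3% were lower and 13.5% higher, so the share called higher was below that of all genes. The median log2 fold change of the list was -0.35. Only 2 were called higher without scaling of the arrays. Genes that load Sm proteins onto snRNA or modify them had the lowest median of the 5 lists, -0.69, and 4 of 9 tested were lower and 0 higher by limma. These were PRMT5, WDR77 and CLNS1A, which form the methylosome that methylates Sm proteins, and STRAP, a partner of the SMN complex. PRMT5 read 146.8, 162.2 and 114.6 in tretinoin and 365.1, 379.6 and 337.6 in DMSO, 2.56-fold lower (log2 fold change -1.37 ± 0.16, SE; limma, adjusted p = 0.000883). WDR77 was 1.97-fold, CLNS1A 1.74-fold and STRAP 1.61-fold lower (limma, adjusted p = 0.00495, 0.00696 and 0.0043), and none of the 4 overlapped between conditions. Of the other snRNP proteins, 9 of 19 were lower and 0 higher by limma, led by PPIH, a cyclophilin of the U4/U6 snRNP, at 110.4, 81.83 and 81.57 in tretinoin and 221.8, 240.5 and 223.1 in DMSO (2.50-fold lower; limma, adjusted p = 0.000869), and by CHERP (2.10-fold lower; limma, adjusted p = 0.00817).

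Genes of the PRP19 complex and the catalytic steps had a median log2 fold change of 0.01, with 1 of 13 lower (BCAS2) and 1 higher (DHX8). This was 7.69% each way, against 14.3% lower and 13.5% higher over all genes. DHX8, the helicase that frees spliced mRNA, was at least 1.77-fold higher, since 2 of its DMSO arrays were below 20 (limma, adjusted p = 0.0264). Of 8 exon junction genes, RNPS1 was lower (log2 fold change -0.92) and PNN, which binds RNPS1, higher (0.65), 12.5% each way. Among 36 splicing regulators, 9 were lower (25%) and 4 higher (11.1%) by limma. The lower ones included KHSRP (2.25-fold), ILF2 (2.10-fold) and RBM10, at least 2.20-fold lower since 1 tretinoin array was below 20 (limma, adjusted p = 0.00105, 0.000553 and 0.0297). MBNL1, a muscleblind protein that controls developmental switches of splicing, read 965.2, 966.0 and 760.9 in tretinoin and 427.0, 355.9 and 459.6 in DMSO, 2.17-fold higher with no overlap (limma, adjusted p = 0.00225). Of the listed kinases that phosphorylate SR proteins, CLK1 (2.10-fold), CLK4 (1.69-fold) and SRPK2 (1.52-fold) were higher (limma, adjusted p = 0.0111, 0.00672 and 0.011), and SRPK1 was 2.07-fold lower (limma, adjusted p = 0.00182). CLK2, CLK3 and DYRK1A were not called (log2 fold changes -0.20, 0.36 and 0.27). CLK1 read 58.24, 35.46 and 56.70 in tretinoin and 21.20, 27.28 and 23.05 in DMSO, not far above the floor in vehicle.

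**Figure D5:**
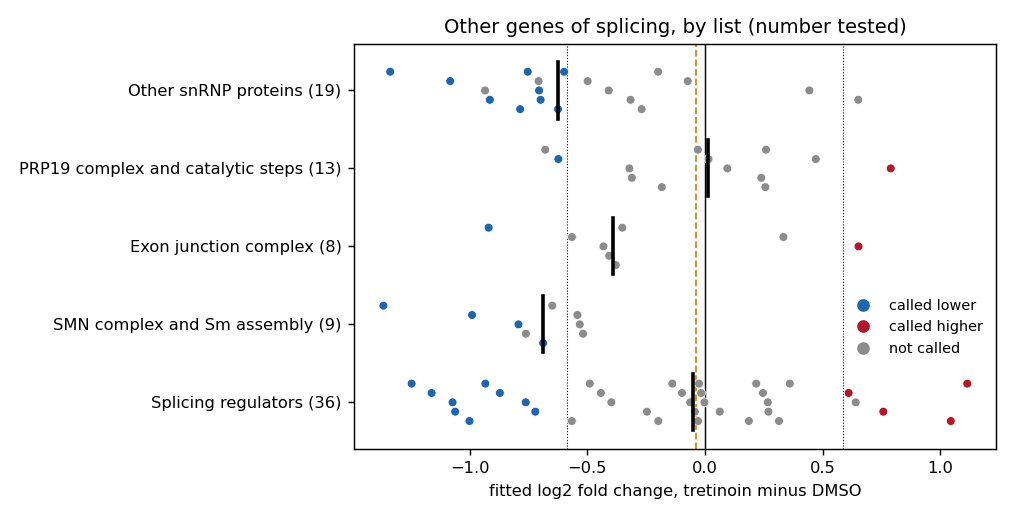
Fitted log2 fold change, tretinoin minus DMSO, of splicing genes outside the name rule, in 5 lists with the number tested in brackets. Black bars are medians, the dashed line is the median of all genes and dotted lines mark 1.5-fold; the SMN and Sm assembly list has its 9 genes below 0, and the highest points are MBNL1 and CLK1 among the regulators.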

How the data were processed

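Signal intensities of 6 HG-U133A arrays, computed with MAS5 by the authors, were deposited on a linear scale and without the scaling to equal overall intensity and the baseline of 20 that the methods describe. The MAS5 version is not given in the sources used here. Arrays were scaled to equal mean signal with DMSO replicate 1 as the standard, a floor of 20 was applied, and limma 3.58.1 (R 4.3.3, with statmod 1.5.0) fitted log2 signal with lmFit and eBayes. Of 22283 probe sets, 13374 exceeded 20 on at least 3 arrays and were tested, with Benjamini-Hochberg adjustment over all of them. Calls needed adjusted p under 0.05 and a fitted 1.5-fold change. Folds printed are ratios of condition means after the floor, and log2 fold changes are fitted. The platform annotation gave 19071 probe sets 1 symbol, 1043 several and 2169 none. Code was tested on simulated data. Python 3.11.15, numpy 2.4.6, pandas 2.3.3 and matplotlib 3.10.9 were used.

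Members and lists were chosen with earlier results of these data known, and the comparison of probe sets and the motifs after values were seen. Genes named were the 12 largest falls, the brightest of each role, the 3 smallest changes, those nearest the threshold and, in counts of 5 or fewer, all; others were picked after their values were seen. Of the other splicing genes, the 6 largest calls in each direction were named. Tretinoin and DMSO arrays carry the same replicate numbers, but deviations from the condition means correlated at -0.03, -0.01 and 0.07 for numbers 1, 2 and 3, so the numbers are not taken to pair arrays. Alternatives were no, median, trimmed mean and quantile scaling, floors of 10 and 40, an offset of 16, other filters, other variances, a replicate block, other fold minimums, other probe sets per gene and each array left out.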

Additional observations from a re-analysis of the deposited data

How the results depend on the processing

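The count of members called lower was 25 and lay between 22 and 30 under 20 of 21 alternatives, with 22 to 28 when 1 array was left out. With a minimum fold of 2 it was 10. Of the 25, 18 were called lower in all of those 20 alternatives. The 7 others were HNRNPM, PRPF31, SNRPC, SNRPD2, SRSF1, SRSF6 and SRSF7, and the brightest of the 3 SRSF7 probe sets without an s or x suffix had a log2 fold change of -0.04 (the others -0.58 each). No member was called higher by limma in any of the 21. Without scaling, the median log2 fold change of members was -0.66 (main setting -0.46), while that of all genes was -0.22 (main setting -0.04), and the calls over all genes were 1453 lower and 697 higher (main setting 1170 and 1103). For the other splicing list, calls higher numbered 6, and 2 without scaling, 3 with a floor of 40 and 2 with a minimum fold of 2, where calls lower numbered 8 in place of 24. Unequal pairs of probe sets, compared after seeing the data, numbered 3, and 0 with a floor of 10, 5 with a floor of 40, 1 with a minimum fold of 2 and 0 to 1 with 1 array left out. With the replicate block, pairs numbered 0 and members called lower 25 as without it; the numbers are not known to pair arrays. U2AF1 passed without scaling, with quantile normalization, with a floor of 40, above the floor on all arrays and with trend and robust variances, with adjusted p between 0.0119 and 0.0453 by limma. The cause of these differences was not tested, except that the stricter fold minimum calls fewer genes by its construction. No called result changed direction, while 6 members not called, HNRNPH3, HNRNPK, HNRNPUL2, LSM1, SRSF4 and SRSF8, turned negative without scaling (-0.05 to -0.19), 2 of them (LSM1 and SRSF8) also with trimmed mean scaling and SRSF8 with quantile normalization. Signals near 20, such as those of PRPF3, have little room above the floor, and 3 arrays per condition limit the precision.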

Other observations

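Some splicing genes were read only, or also, by probe sets annotated to several genes, 19 in all, which were not counted above and whose signal cannot be assigned to 1 gene. The 2 probe sets shared by HNRNPA1 and related genes or pseudogenes overlapped between conditions, whereas the 3 single-gene probe sets of HNRNPA1 had log2 fold changes of -0.44, -0.61 (called lower) and -0.19. One read 3295, 3360 and 3875 in tretinoin and 3280, 3404 and 3895 in DMSO (log2 fold change -0.01; limma, adjusted p = 0.981). The other read 4700, 4567 and 4518 in tretinoin and 4351, 4812 and 4640 in DMSO (limma, adjusted p = 0.997). The 3 probe sets shared by HNRNPA3 and its pseudogene HNRNPA3P1 were all called lower, with log2 fold changes of -1.44, -0.78 and -0.76. For SRSF2, an SR protein whose probe sets are also annotated to MIR636, 2 of 3 were called lower (-0.80 and -0.76; limma, adjusted p = 0.00307 and 0.0078), and the third was at -0.43 (limma, adjusted p = 0.0598). SRSF9, annotated together with GATC, was level on both of its probe sets (log2 fold changes 0.09 and 0.06). SNRPN, a tissue-restricted relative of SNRPB annotated with SNURF, lay below vehicle on all tretinoin arrays of 2 probe sets without a call (-0.33 and -0.39; limma, adjusted p = 0.0736 and 0.0638).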
